A study of Sus scrofa with 36 samples.

Results

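Cultures of pig induced pluripotent stem cells that had been differentiated to endothelium were compared with cultures of the same line that carried a neural programme. The comparison used 6 of the 36 bulk RNA-seq libraries of the series. All 6 came from clone 8, a single clonal line of pig pluripotent cells, so they share its genetic background, and the labels name no genetic change and no treatment beyond differentiation. The endothelial group was the 3 libraries labelled endothelial on day 6. The neural group was chosen by measured values and not by label: among the 6 libraries labelled beating cardiomyocyte (day 9) or neural progenitor (day 24), it took those with more TPM (transcripts, scaled for gene length and library total) of PAX6, a neural transcription factor gene, than of TNNT2, the gene of cardiac troponin T. The 3 libraries that met this rule were the library labelled cardiomyocyte replicate 2 and the libraries labelled neural progenitor replicates 2 and 3. The library labelled neural progenitor replicate 1 did not meet it. PAX6 and TNNT2 are therefore described here and not tested, and p-values of other neural genes describe libraries that were selected on a neural gene. Day and culture protocol differ between the groups, and their share in a difference cannot be told apart from that of the lineage. The labels do not tell whether replicates are separate differentiations, and p-values therefore rest on library-to-library spread that may be technical only.

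Endothelial cells line blood vessels and form from mesoderm under vascular endothelial growth factor (VEGF), which they sense through receptor tyrosine kinases, while ETS and SOX factors switch on their junction and receptor genes. Neural progenitors form from ectoderm where bone morphogenetic protein (BMP) signals are low, divide as radial glia that express SOX, PAX and LHX factors, and release neurons through a Notch relay between neighbouring cells. Both tissues meet in the developing brain, where neural cells send VEGF and Wnt signals to invading vessels.

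The values that placed the libraries were far apart. PAX6 stood at 254, 359.6 and 339 TPM in the library labelled cardiomyocyte replicate 2 and those labelled neural progenitor replicates 2 and 3, in this order, which is kept throughout. TNNT2 stood at 4.28, 3.38 and 2.48 TPM in the same libraries. In the 3 libraries that the rule left out, PAX6 was between 0.08 and 0.27 TPM and TNNT2 between 4380.2 and 5155 TPM, so no library lay near the threshold. CDH5, which encodes the endothelial cadherin VE-cadherin and was not used to choose libraries, stood at 100.2, 73 and 83.9 TPM in endothelial replicates 1 to 3 and had no count in any neural library (at least 805-fold higher against a floor of 3 counts over the group). Rank correlations of expression across the tested genes were 0.971 to 0.977 among the 3 neural libraries and 0.981 to 0.992 among the 3 endothelial ones, and 0.688 to 0.713 between the groups. The library labelled cardiomyocyte lay within 2-fold of the mean of the other neural libraries for 9279 of 9457 genes with a mean of at least 10 CPM (counts scaled to a common library total; 98.1%). Total estimated counts ran from 1845333 (labelled neural progenitor replicate 3) to 9727315 (endothelial replicate 2), so genes of low level are measured less precisely in the shallowest library.

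**Figure D1:**
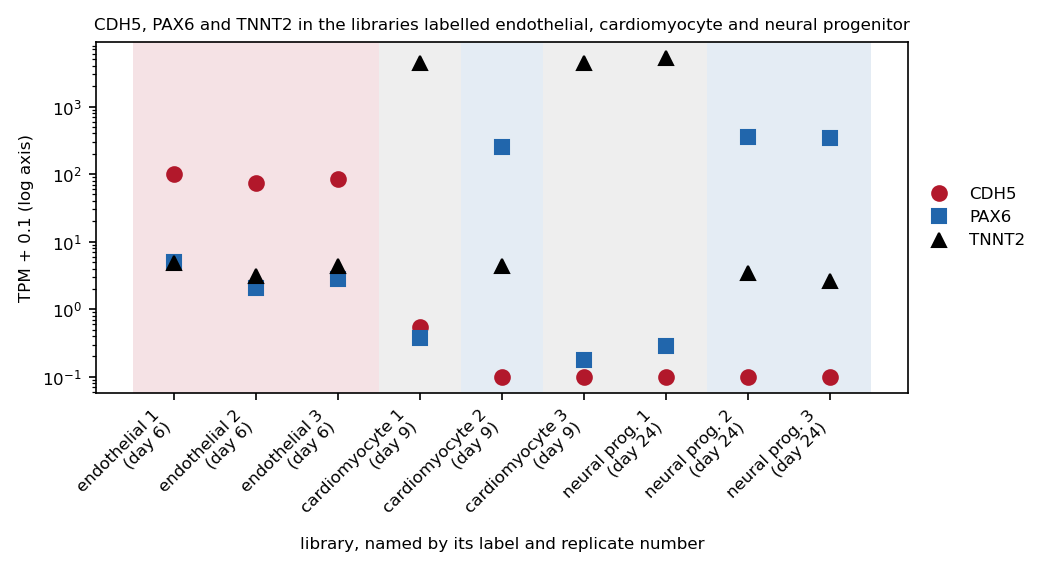
CDH5, PAX6 and TNNT2 in the 9 libraries labelled endothelial, cardiomyocyte or neural progenitor, 1 point per gene and library, on a log axis of TPM + 0.1. Red shading marks the endothelial group, blue the neural group and grey the 3 libraries left out; PAX6 lies between 254 and 359.6 TPM in the blue libraries and TNNT2 at 4380.2 TPM or more in the grey ones.

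The difference between the groups ran through most of the expressed genome. Of 13007 genes tested, 8570 (65.9%) passed at an adjusted p under 0.05 in the quasi-likelihood test of edgeR, 4502 of them higher in the endothelial libraries (34.6%) and 4068 lower (31.3%). Counts of genes in each list below are read against these shares: with 65.9% of all genes called, a call by itself says little, and the size of the difference and the balance of directions say more. The median log2 difference (endothelial minus neural, on the scale of scaled counts) was 0.08 over all tested genes. On the log2(TPM + 1) scale that median was -0.23, and the split of calls was 3109 higher and 5118 lower, so small differences depend on the scaling, and genes named below that lose their call on that scale are pointed out. When the groups were taken as labelled, with all 3 libraries labelled neural progenitor as the neural side, 1231 genes were called (666 higher and 565 lower). Levels are in TPM, and ± after a level is the SD of 3 libraries. Other values are log2 differences ± SE, and adjusted p-values are those of edgeR over all tested genes. A gene that is absent from one group enters the test through the other and is then nearly always called, so counts over lists are descriptions. In bulk RNA a lower share of cells of one type and less RNA per cell cannot be told apart.

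The genes that differed most gave each group its character. Ranked by size of difference among genes with a symbol, the 10 highest in the endothelial libraries were PLVAP, CLDN4, FLI1, GABRP, ADGRL4, CDH5, MSX2, RAB11FIP1, CD93 and PLBD1. PLVAP, which builds the diaphragms of vessel fenestrae, was the most extreme: 849.6, 911 and 891 TPM in the endothelial libraries against 0.19, 0.31 and 0 in the neural ones, with 3 neural counts in all, a ratio of 5284 (95% counting interval 1808 to 25624). Only some of the 10 are vessel genes. CLDN4 is a claudin of epithelial tight junctions (215, 329.6 and 258 against 0, 0 and 0.75 TPM), and MSX2 is a homeobox gene of BMP-exposed tissue (63.4, 60.6 and 52.9 against 0, 0.16 and 0 TPM). Among the 10 lowest in the endothelial libraries were ELAVL3, SLC17A6, NR2E1, STMN2, MYT1, TBR1, FSTL5 and NEUROD4. They are mostly genes of neurons rather than of dividing progenitors: ELAVL3 encodes a neuronal RNA-binding protein and SLC17A6 a vesicular glutamate transporter. STMN2, a regulator of microtubules in growing axons, was at 1582, 1492 and 1676 TPM in the neural libraries against 0.8, 1.15 and 0.72 in the endothelial ones.

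The labels were checked against fixed markers. All 9 endothelial markers (CDH5, PECAM1, KDR, TEK, TIE1, ESAM, CLDN5, ERG and SOX17) were higher in the endothelial libraries. Of the blood markers, PTPRC had 1 count over the 3 libraries, GATA1 none, and SPI1 stood at 0.42, 1.86 and 0.61 TPM. Of the 16 measured genes of the blood list 4 were tested: KIT, a receptor of several progenitor cells, and AIF1, known from macrophages, were higher, and MYB and ITGA2B lower. The call of MYB was lost without endothelial replicate 1 (adjusted p = 0.0548) or the library labelled neural progenitor replicate 2 (adjusted p = 0.072), and that of ITGA2B without any one endothelial library or the library labelled cardiomyocyte replicate 2 (adjusted p = 0.0634 to 0.256). AIF1 stood at 16.2, 21 and 26.7 TPM with no neural count (at least 39.5-fold), and at 21.9 ± 4.64 TPM on day 0. The blood list summed to 60.3 to 63.2 TPM in the endothelial and 19.6 to 27.3 TPM in the neural libraries. The pluripotency genes POU5F1 (2.66, 1.92 and 0.2 TPM) and NANOG (0.97, 0 and 0 TPM) were far under the 717 ± 69.9 and 68.8 ± 0.43 TPM of undifferentiated clone 8 cells on day 0. Epithelial markers were not low. CDH1, the gene of E-cadherin, stood at 128, 117 and 120.4 TPM in the endothelial libraries, 0.42, 1.08 and 0 TPM in the neural ones and 646 ± 87.8 TPM on day 0. EPCAM, an adhesion gene of epithelia, stood at 241, 330.2 and 318 TPM in the endothelial libraries, 0.33, 1.06 and 1.91 TPM in the neural ones and 644 ± 26.8 TPM on day 0. Both epithelial genes were thus between the neural and the day 0 level. The summed level of the 16 measured genes of the epithelial list was 5003 to 6389.8 TPM in the endothelial libraries, more than the 2212 to 2394 TPM of the 37 endothelial receptor and junction genes in the same libraries. The 21 measured fibroblast and mesenchyme genes summed to 1155 to 1657 TPM there. KRT8, a keratin gene, made up a large part of the epithelial sum, and sums over different genes do not compare amounts of cells. RNA of the endothelial cultures held endothelial, epithelial and mesenchymal genes together, and the part of each in the differences below was not tested.

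In the neural libraries, which PAX6 had selected, the other markers SOX1, SOX2, LHX2, SIX3, NES and DCX stood above their endothelial level. The fibroblast markers COL1A1 (2.21, 3.73 and 5.56 TPM) and DCN (0.31, 0.73 and 0 TPM) were low there, while COL5A2, another collagen, stood at 42.7, 54.5 and 35.7 TPM. The smooth muscle and mural list summed to 65.1 to 172 TPM in the neural and 119 to 166 TPM in the endothelial libraries. Its 11 tested genes went mostly 1 way: 6 were higher in the endothelial libraries (ABCC9, ACTA2, PDGFRB, RGS5, SMTN and TAGLN), 1 lower (DES) and 4 not called. The log2(TPM + 1) scale of limma gave 4 higher and 2 lower, and ABCC9 and ACTA2 lost their call there. DES, the gene of desmin, was higher in the neural libraries (21.6, 22.9 and 104 against 18, 5.52 and 7.04 TPM), a call lost without the library labelled neural progenitor replicate 3 (adjusted p = 0.0739). Some sarcomere genes were present at levels that differed between the neural libraries. MYL2, a ventricular myosin light chain, stood at 18.7, 23.4 and 83.2 TPM and MYH7, a myosin heavy chain, at 30.2, 41.8 and 102. Both were highest in the shallowest library, labelled neural progenitor replicate 3, and their mean in the 3 libraries with high TNNT2 was 1221 ± 22.9 and 694 ± 178 TPM. Endothelial replicate 1 also stood apart for MYL2, at 24.1 TPM against 0.26 and 0.69 in the other endothelial libraries. The cause of these traces was not tested.

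**Figure D2:**
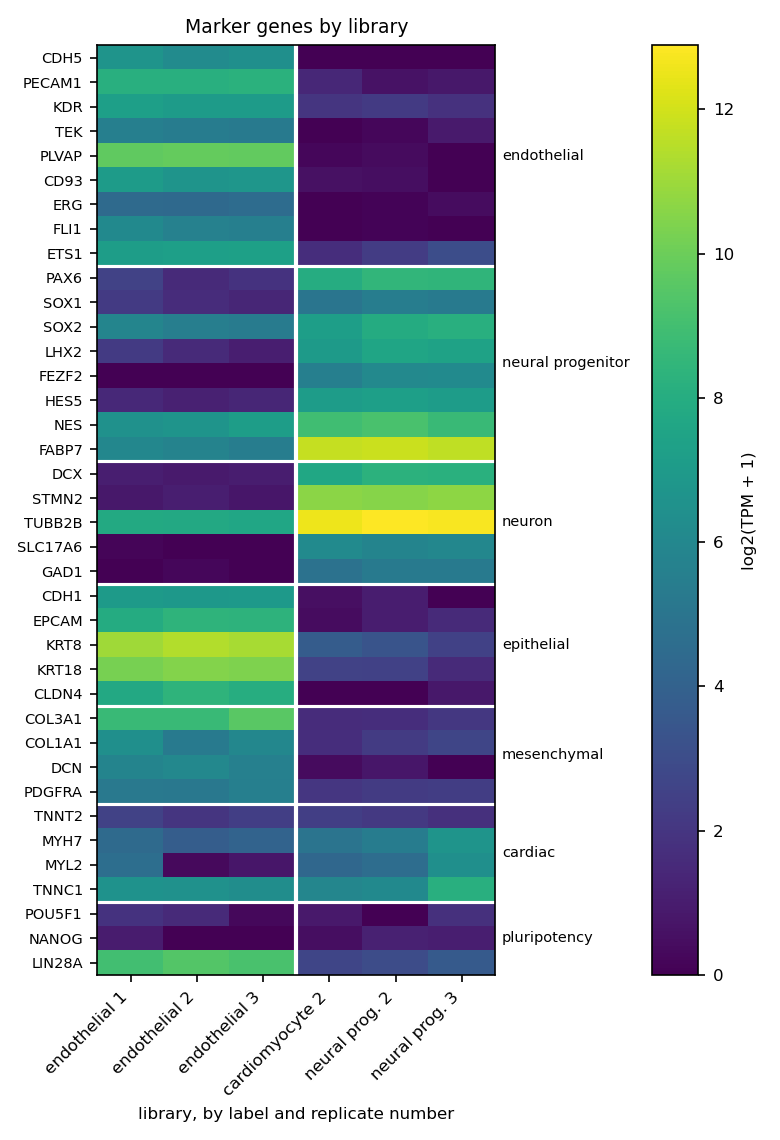
Marker genes in the 6 libraries, coloured by log2(TPM + 1); rows are genes grouped by the cell type they mark and the white vertical line parts the endothelial from the neural libraries. Endothelial, epithelial and mesenchymal rows are bright on the left and neural and neuronal rows on the right, while MYL2 and TNNC1 are brightest in the library labelled neural progenitor replicate 3.

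The receptors and junction proteins of endothelium were almost uniformly higher in the endothelial libraries. Of 34 tested genes, 31 were higher, 2 lower (MCAM and S1PR1) and 1 not called (NRP1), with a median log2 difference of 4.95. KDR, the main VEGF receptor, stood at 153, 133 and 133 TPM against 3.01, 3.51 and 2.55 (log2 difference 5.83 ± 0.18, adjusted p = 1.5e-12). No endothelial library overlapped a neural one for it, and the difference was 56.9-fold. The same absence of overlap held for every gene named below as higher or lower, with the exceptions CDH11, NOTCH2, PHGDH, ENO1 and PFKL. It is not stated for PAX5. PECAM1, a junction adhesion molecule, was 365-fold higher (284 ± 9.82 against 1.02 ± 0.634 TPM), and TEK, the angiopoietin receptor also called TIE2, was 283-fold higher (41.9 ± 3.7 against 0.347 ± 0.469 TPM). The VEGF receptor genes FLT1 and FLT4 followed at 70.5-fold and 13.2-fold.

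Among genes that specialised vessels use, EMCN, ROBO4 and PROCR had no count in the neural libraries and were at least 77.5-fold, 29.8-fold and 29.4-fold higher. VWF, the clotting factor that mature endothelium stores, reached 17 ± 4.41 TPM, and NOS3, the endothelial nitric oxide synthase, 7.39 ± 0.62 TPM. ICAM2 and LYVE1 did not pass the filter on low counts, with means of 1.84 ± 0.501 and 1.54 ± 0.764 TPM. The exceptions were genes that neural cells also express. MCAM, an adhesion molecule, stood at 25, 19.9 and 22.1 TPM in the endothelial and 41.9, 55.2 and 46.8 TPM in the neural libraries, lower in the endothelial group by 1.68-fold. S1PR1, a sphingosine phosphate receptor, was lower (7.56 ± 0.159 against 16.6 ± 5.84 TPM, adjusted p = 0.0171), a call lost without the library labelled neural progenitor replicate 2 (adjusted p = 0.0867). NRP1, a co-receptor for VEGF and semaphorins, stood at 26.8 ± 2.98 and 32.6 ± 5.69 TPM.

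Transcription factors of the endothelial lineage separated the groups as well. Of 18 tested, 16 were higher and 2 lower, with a median of 3.33. FLI1, an ETS factor that holds endothelial identity, stood at 69.5, 49.9 and 45.9 TPM in the endothelial libraries and had 1 neural count, a ratio of 1216 (95% counting interval 218 to 48038). ERG, a second such factor, stood at 21, 20.4 and 22.4 TPM and had 2 neural counts, a ratio of 296 (95% counting interval 81.7 to 2448). ETS1 had a mean of 152 ± 5.68 against 4.41 ± 2.53 TPM (47.1-fold). BCL6B was 254-fold and EPAS1, a hypoxia-responsive factor, 48.4-fold higher. ETV2, the factor that starts the endothelial programme and is then turned down, was at 5.92 ± 1.51 against 2.32 ± 0.568 TPM (1.58 ± 0.41, adjusted p = 0.00304). TAL1 and LMO2, shared by blood and vessel precursors, were 7.77-fold and 6.95-fold higher.

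The 2 factors that went the other way were NR2F2 and PROX1. NR2F2, known in vessels as a determinant of vein identity and in the brain as a factor of progenitors and interneurons, stood at 178, 108 and 135 TPM in the endothelial and 856, 1050.2 and 939 TPM in the neural libraries (-2.46 ± 0.17, adjusted p = 6.86e-09). It was thus present in both, 5.51-fold lower in the endothelial group. PROX1, a lymphatic and neuronal factor, was at 1.68 ± 0.617 against 11.9 ± 1.83 TPM. Some genes linked to arteries were higher. GJA5, a gap junction gene, stood at 112 ± 19.4 against 2.18 ± 1.13 TPM and HEY1 at 92.5 ± 25.2 against 2.85 ± 0.808, and GJA4 had no neural count (at least 80.8-fold). EFNB2, the arterial ephrin, was higher by 1.98-fold and its venous receptor EPHB4 by 3.39-fold. In all, 12 of 18 arterial, venous and vascular Notch genes were higher and 3 lower (NOTCH1, HEY2 and NR2F2).

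Among VEGF and angiopoietin ligands, 6 of 8 tested were higher in the endothelial libraries, 1 was lower (VEGFA) and VEGFB was not called. VEGFA, the main ligand of KDR, stood at 9.65 ± 1.31 TPM in the endothelial and 57.1 ± 8.7 TPM in the neural libraries (-2.04 ± 0.22, adjusted p = 8.83e-07), 4.11-fold lower in the libraries with high receptor levels. VEGFC (4.72-fold), PGF (27.6-fold) and ANGPT2 (12.4-fold), ligands that vessels themselves can make, were higher in the endothelial libraries. Of 8 tested genes of activated endothelium, 7 were higher and none lower, and the list summed to 111 to 134 TPM in the endothelial libraries against 31.2 to 36.5. PLAT, a plasminogen activator, stood at 54 ± 4.82 against 23.9 ± 6.53 TPM, and PTGS2, a prostaglandin synthase, at 25.1 ± 10.2 TPM with 3 neural counts. The selectins were its low members: SELE, the E-selectin gene, stood at 1.75, 2.28 and 2.43 TPM and SELP, the P-selectin gene, at 4.64, 7.3 and 4.54 TPM. Neither had a neural count.

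Neural transcription factor genes stood higher in the neural libraries almost throughout. These libraries were selected on PAX6, so high levels of factors that go with it come with the choice. The counts and p-values here are therefore descriptions. Of 36 tested neural transcription factor genes other than PAX6, 35 were lower in the endothelial libraries and ZIC2 was not called, with a median of -4.58. Without the library labelled cardiomyocyte replicate 2, 35 of 37 were lower and SIX6 was higher. LHX2, a forebrain factor, stood at 130.5, 191 and 169.8 TPM against 3.52, 1.85 and 1.11 in the endothelial libraries (-6.06 ± 0.26, adjusted p = 2.77e-11). SOX1 and SOX3 were 12.9-fold and 35.2-fold lower in the endothelial libraries. SOX2 was lower by 3.6-fold, and the endothelial libraries still held 57.5, 45.4 and 40.3 TPM of it. ZIC2 stood at 83.9, 32.8 and 27.2 TPM in the endothelial libraries, where replicate 1 was high, and at 63.5, 66.8 and 88.7 TPM in the neural ones. Without endothelial replicate 1 it was called lower (-0.85, adjusted p = 0.00152).

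Among regional genes of the neural tube, those of its front end were the most uniform. All 12 tested forebrain genes were lower in the endothelial libraries. FEZF1 stood at 49.9, 71.5 and 82.9 TPM and FEZF2 at 46.1, 67 and 70.5 TPM in the neural libraries. Neither of these forebrain repressor genes had an endothelial count, which puts them at least 379.6-fold and 469.7-fold higher in the neural libraries. SIX3 was at 55.8 ± 15.9 TPM in the neural libraries, EMX2 at 86.9 ± 16.3 and LHX5 at 143 ± 11.4. RAX, an eye field gene, had no count in any of the 6 libraries, and SIX6 none in the neural ones. Midbrain and hindbrain border genes summed to 11.7 to 17.5 TPM in the neural and 30.1 to 45.4 TPM in the endothelial libraries. The 6 tested ones were divided: 2 were higher in the endothelial libraries, GBX2 among them, 1 was lower (PAX5) and 3 were not called. EN1 stood at 1.84 ± 0.311 TPM in the neural libraries. GBX2, a gene of the hindbrain side, stood at 23.7, 15 and 11.6 TPM in the endothelial libraries against 0, 1.49 and 0.6 TPM. Ventral genes were low but present, with NKX2-2 at 5 ± 0.3, OLIG2 at 3.3 ± 2.28 and DBX1, an intermediate progenitor domain gene, at 14.1 ± 5.37 TPM. PAX3 and PAX7, dorsal neural tube and crest genes, were 3.77-fold and 4.13-fold higher in the endothelial libraries (11.6 ± 2.36 and 1.89 ± 0.329 TPM there).

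Genes of postmitotic neurons were far higher in the neural libraries. All 33 tested neuron and synapse genes were lower in the endothelial libraries, with a median of -6.15, against 31.3% lower among all tested genes. DCX, a microtubule protein of migrating neurons, stood at 201, 308 and 293 TPM against 1.11, 0.9 and 1.04 (-7.68 ± 0.21, adjusted p = 9.1e-13). TUBB2B, a neuronal tubulin, was the most abundant at 6059, 7561 and 6957 TPM and still reached 224, 215 and 198 TPM in the endothelial libraries. MAPT, which encodes tau, was 311-fold and INA, an intermediate filament, 713-fold lower in the endothelial libraries. The neural libraries held genes of both main transmitter classes: SLC17A6 for glutamate stood at 71.6, 55.2 and 60.4 TPM, and for GABA the synthesis gene GAD1 at 35.1 ± 6.18, GAD2 at 29.5 ± 10.5 and the vesicle carrier SLC32A1 at 21.8 ± 9.08 TPM. SYN1 (9.15 ± 2.73 TPM) and RBFOX3 (4.71 ± 0.725 TPM), which mark more mature neurons, were at the low end of the list. The neurofilament genes kept a clear level in the endothelial libraries. NEFL stood at 44.7, 72 and 86.5 TPM there against 421, 797 and 648 TPM, and NEFM at 20.9, 29.9 and 50.6 against 199, 454 and 252 TPM.

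Progenitor genes of the radial glia list moved less evenly. Of 17 tested, 10 were lower in the endothelial libraries, 5 higher (HES1, NOTCH2, PHGDH, PROM1 and TNC) and 2 not called (NOTCH3 and VIM). FABP7, a fatty acid binding protein of radial glia, stood at 3409, 3693 and 3164 TPM against 61.7, 54.2 and 43.2 (51.1-fold), and PTPRZ1, a receptor phosphatase, at 165 ± 47.1 against 1.53 ± 0.204 TPM. NES, the progenitor filament gene nestin, was 3.48-fold lower in the endothelial libraries but still at 92.2, 100.3 and 141 TPM there. VIM, expressed in both mesenchyme and radial glia, stood at 878 ± 81.1 and 936 ± 171 TPM. The calls of NOTCH2 and PHGDH were lost without the library labelled cardiomyocyte replicate 2 (adjusted p = 0.0733 and 0.0648) and on the log2(TPM + 1) scale of limma (adjusted p = 0.373 and 0.27), and that of HES1 when any one of the other 5 libraries was left out (adjusted p = 0.0705 to 0.221). PROM1 and TNC were 5.57-fold and 3.58-fold higher in the endothelial libraries. Markers of later glia were mixed: SLC1A2, an astrocyte glutamate transporter, was at 20.1 ± 6.86 TPM in the neural libraries, while AQP4 was at 0.05 ± 0.0866 and MBP at 0.193 ± 0.335 TPM, both under the filter on low counts.

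The neural counts were repeated with other libraries on the neural side, since a library with a cardiomyocyte label sits in that group. Without the library labelled cardiomyocyte replicate 2, the 33 tested neuron and synapse genes were again all lower, and of 13 forebrain genes 12 were lower and 1, SIX6, higher. The endothelial lists kept their form in that fit, with 31 of 35 receptor and junction genes and 17 of 20 transcription factors higher. With the groups as labelled, the high-TNNT2 library labelled neural progenitor replicate 1 joined replicates 2 and 3. Then none of 22 tested neural transcription factors other than PAX6 and 6 of 22 neuron and synapse genes were called lower, while 20 of 34 endothelial receptor and junction genes and 21 of 24 HOX genes were still called higher.

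**Figure D3:**
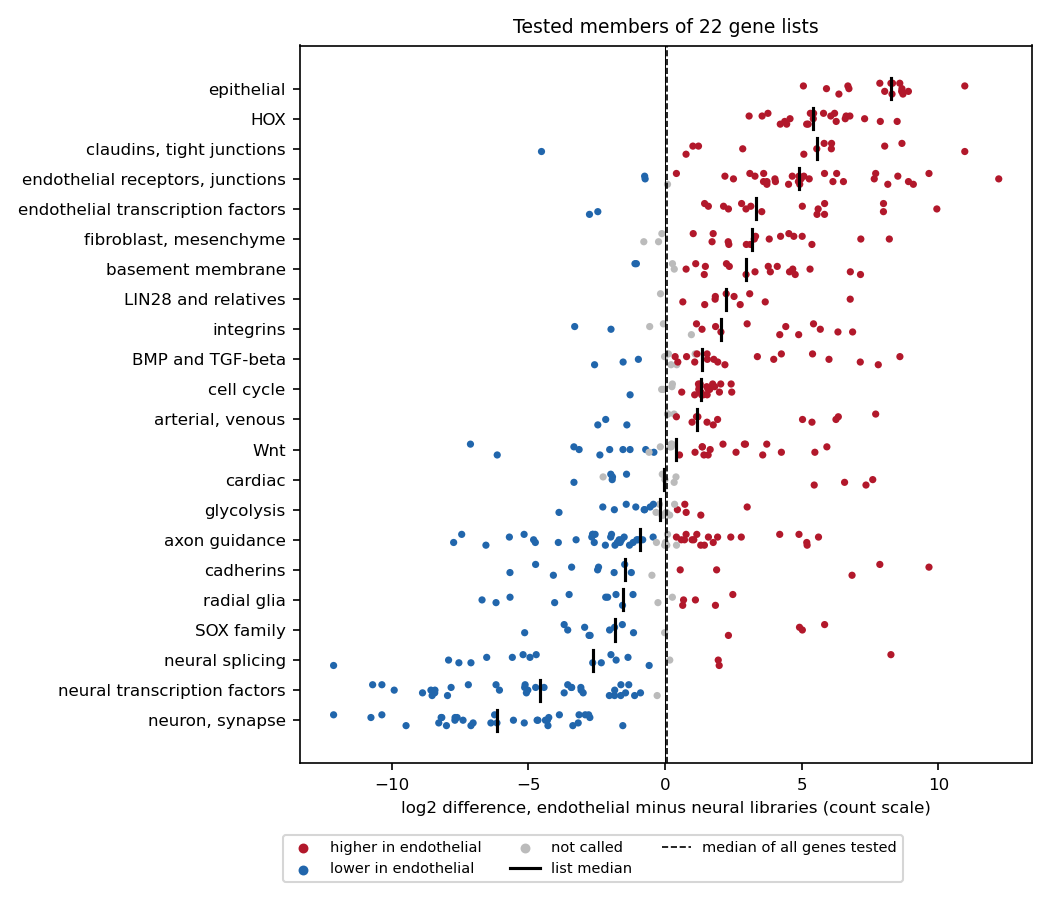
Log2 difference (endothelial minus neural, count scale) of every tested member of 22 gene lists, 1 point per gene, red where higher, blue where lower and grey where not called; black ticks are list medians (PAX6 and TNNT2 are not drawn), and the dashed line is the median of all tested genes at 0.08. Genes without a count in one group are drawn at the bound set by 3 counts; the median of the epithelial list lies furthest right and that of the neuronal list furthest left.

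Notch genes were divided between the groups by member. The ligand DLL4 stood at 52.5, 39.5 and 29.2 TPM in the endothelial and 0.78, 1.35 and 4.14 TPM in the neural libraries (5.03 ± 0.36, adjusted p = 8.84e-09), whereas DLL1 stood at 8, 6.98 and 6.89 against 63, 82.1 and 69.3 TPM (-2.94 ± 0.16, adjusted p = 4.08e-10). The receptor NOTCH4 was 2.89-fold higher and NOTCH1 4.51-fold lower in the endothelial libraries, and NOTCH3 was not called. The target genes split in the same manner: HEY1 was 41.4-fold higher, while HES5 (1.82, 1.31 and 1.57 against 141, 153 and 139 TPM), HES6, HES4, HEY2 and the feedback gene NRARP were lower. JAG1, at 58.9 ± 7.05 and 59.2 ± 5.98 TPM, was called higher only without the library labelled cardiomyocyte replicate 2 (adjusted p = 0.0269). Of the 21 tested genes, 6 were higher and 12 lower, a called share of 85.7% against 65.9% over all tested genes, where 34.6% were higher and 31.3% lower.

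The SOX and cadherin families showed the same exchange of members. Among 15 tested SOX genes, 10 were lower in the endothelial libraries and 4 higher. The higher ones were SOX17 (28.4, 16.3 and 18.4 against 0.38, 0.46 and 0.56 TPM) and SOX7 (no neural count, at least 32.4-fold), both vascular SOXF genes, with SOX13 and SOX10. The lower ones held the SOXB genes SOX1, SOX2, SOX3 and SOX21 and the SOXC genes SOX4, SOX11 and SOX12, of which SOX4 was at 38.3 ± 11.6 against 336 ± 72.3 TPM. SOX18, the third SOXF gene, did not pass the filter (5.44, 1.96 and 1.84 TPM). Of 15 tested cadherins, 9 were lower, among them CDH2, the gene of N-cadherin (196, 115 and 137 against 417, 589 and 590.1 TPM, 2.79-fold), and CDH7 (51.2-fold). CDH5, CDH1, CDH3 and CDH6 were higher, and so was CDH11 on the count scale, but not on the log2(TPM + 1) scale of limma (adjusted p = 0.29). CDH3, the gene of P-cadherin, stood at 67.8, 55 and 63.5 against 0, 1.01 and 1.47 TPM. Tight junction genes were higher in 12 of 13 cases. CLDN5, the endothelial claudin, stood at 69.3, 49.8 and 31.7 TPM, under the epithelial claudins CLDN4 and CLDN6 (96.1, 101 and 82.6 TPM), while JAM2 was lower (1.04 ± 0.288 against 30.1 ± 1.18 TPM).

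**Figure D4:**
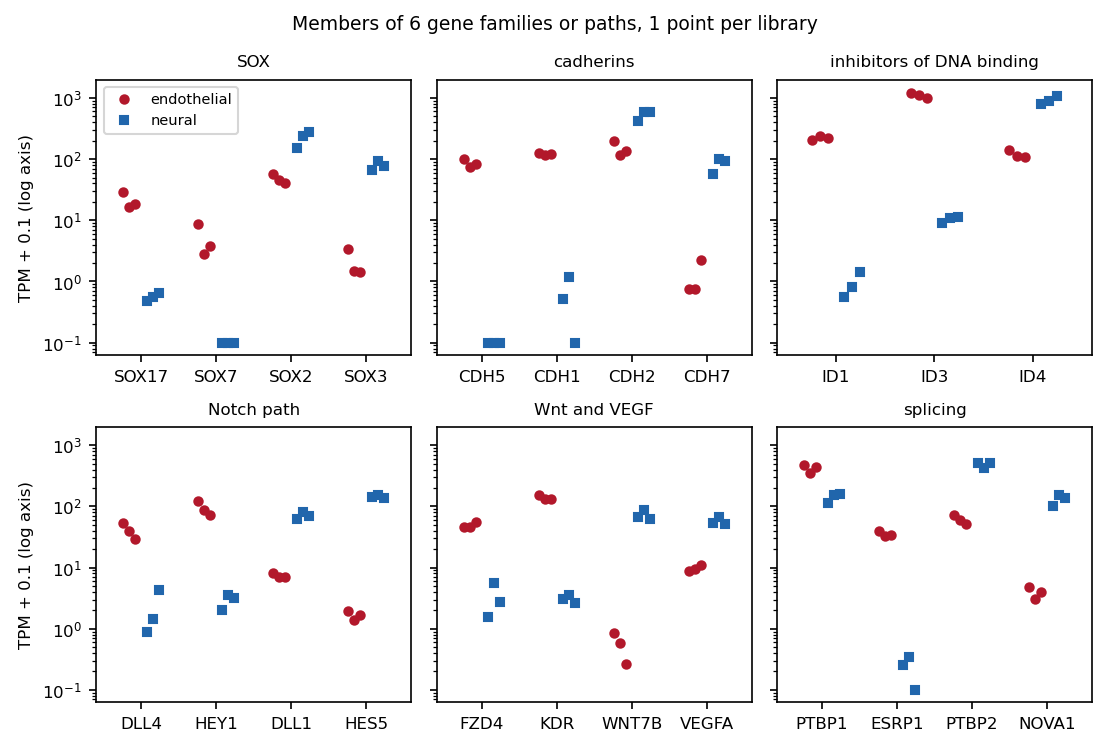
Expression of members of 6 gene families or paths, 1 point per library (red circles endothelial, blue squares neural), on a log axis of TPM + 0.1. In each panel the genes on the left are higher in the endothelial libraries and those on the right are higher in the neural libraries, with no overlap of the 3 and 3 libraries for any gene drawn.

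HOX genes, which mark position along the trunk, were higher in the endothelial libraries wherever they could be tested. All 22 tested HOX genes were called higher, with a median of 6.81 (5.43 with genes at 0 set to the floor of 3 counts). They came from all 4 clusters, and since most had almost no neural count, they entered the test through the endothelial libraries. HOXC8 stood at 50.5, 50.2 and 49.4 TPM against 0.21, 0.16 and 2.98, HOXB8 at 33.8, 33.3 and 30.2 against 0.23, 0.32 and 0, and HOXB7 at 26.3, 27.9 and 29.6 with no neural count. Levels stopped at one point in the clusters: of 23 measured genes of paralog groups 1 to 9, 22 passed the filter and were higher, and of 12 measured genes of groups 10 to 13 none passed it, with a highest endothelial mean of 1.47 TPM. No HOX gene exceeded a mean of 1.12 TPM in the neural libraries, and the highest mean on day 0 was 1.11 TPM. HOXB7 and HOXC8 lie on chromosomes 12 and 5 of Sscrofa11.1 (RefSeq positions 24861165 to 24864675 and 19222124 to 19225734).

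**Figure D5:**
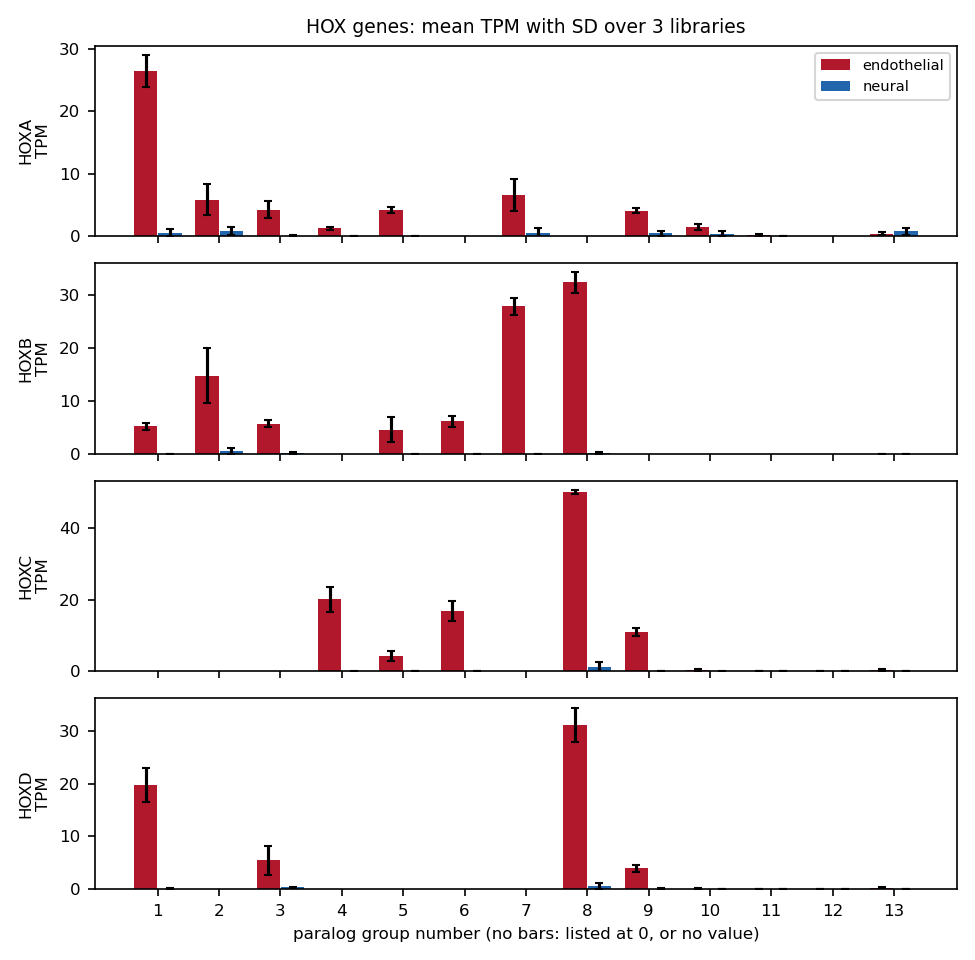
HOX genes of the 4 clusters by paralog group, as mean TPM with SD over 3 endothelial (red) and 3 neural (blue) libraries, on a linear axis from 0. Bars of groups 1 to 9 stand in the endothelial libraries, highest for HOXC8 at 50.1 TPM, and no bar of groups 10 to 13 exceeds 1.47 TPM.

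Genes of the matrix around the cells were mostly higher in the endothelial libraries. Of 21 tested basement membrane genes, 17 were higher, with a median of 2.96. COL4A1, a chain of the collagen of vessel walls, stood at 373, 296 and 420.4 TPM against 19.7, 20.7 and 18.6 (4.55 ± 0.19, adjusted p = 1.7e-11). The laminin chain LAMB1 was 142-fold, NID1 109.6-fold and FN1, the gene of fibronectin, 25.4-fold higher. LAMB2 and AGRN, which is also made by neurons, were lower (2.07-fold and 2.15-fold). Integrins followed the matrix, with 12 of 17 higher: ITGA5, the fibronectin receptor, was 21.3-fold and ITGA1, a collagen receptor, 43.1-fold higher, and ITGB1, the common partner, stood at 917 ± 35.4 against 327 ± 32.6 TPM. ITGB8 (3.64 ± 1.15 against 49.5 ± 12.1 TPM) and ITGB2 were lower, the latter not without endothelial replicate 2 (adjusted p = 0.104). In the list of neural matrix genes, NCAN, the brain proteoglycan neurocan, was 58.8-fold lower in the endothelial libraries, whereas COL2A1, a cartilage and notochord collagen, stood at 458, 309 and 367 TPM against 4.65, 4.98 and 4.16 and HAPLN1 at 136 ± 19.8 against 0.327 ± 0.26 TPM.

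Targets of BMP signalling separated the groups sharply. ID1 and ID3, direct targets that hold back differentiation, stood at 222 ± 13.6 and 1117 ± 109 TPM in the endothelial libraries against 0.827 ± 0.44 and 10.3 ± 1.05 TPM (385-fold and 141-fold). ID4, the family member of neural progenitors, went the other way, at 141, 111 and 109 against 799.7, 896 and 1062 TPM (-2.58 ± 0.16, adjusted p = 1.76e-09). The ligand BMP4 was 10.4-fold higher and the antagonist CHRD 2.9-fold lower in the endothelial libraries. Other antagonists and modulators did not follow CHRD: GREM1 was not among the lower genes. BMPER was not called (17.2 ± 0.642 and 18 ± 1.69 TPM). TGFBR2, the type II receptor for TGF-beta, was far higher in the endothelial libraries (48.2, 42.2 and 37.7 against 0, 0.49 and 0 TPM, 223-fold), and its ligand TGFB1 was 42-fold higher. Of 26 tested genes of the pathway, 18 were higher and 3 lower (ID4, CHRD and BMPR2). MSX1 and MSX2, further targets of BMP, had 0 and 1 neural counts in all.

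Wnt and fibroblast growth factor (FGF) genes lay on both sides. WNT7A stood at 28.2, 46.6 and 22.5 TPM in the neural libraries against 0, 0.37 and 0.46 TPM in the endothelial ones, and WNT7B at 67.9, 86.3 and 62.9 against 0.74, 0.48 and 0.17 TPM. Both are ligands through which neural cells instruct brain vessels, and both were low in every endothelial library. FZD4, a receptor of vascular Wnt and norrin signals, was higher in the endothelial libraries (49.2 ± 5.27 against 3.19 ± 2.03 TPM), as were FZD6 and FZD10, while FZD1 and FZD3 were lower. The general target AXIN2 was not called (16.3 ± 2.43 and 18.1 ± 3.1 TPM), and NKD1 and SP5, further targets, were 7.67-fold and 11.9-fold higher. In all, 16 of 32 tested Wnt genes were higher and 10 lower, a called share of 81.2% against 65.9% over all tested genes, where 34.6% were higher and 31.3% lower. The feedback and target genes of FGF and ERK signalling in the list, SPRY1, SPRY2, SPRY4, SPRED1, SPRED2, DUSP6, ETV4 and ETV5, were higher. DUSP6, an ERK phosphatase, stood at 262, 188 and 161 TPM against 10.9, 8.08 and 10.1 (4.74 ± 0.23, adjusted p = 9.28e-11). The receptor FGFR3 went the other way, at 12.3, 6.11 and 7.6 against 166, 235 and 203 TPM (18.8-fold lower).

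Guidance cues are shared by growing vessels and axons, and their genes were split between the groups: of 54 tested, 19 were higher and 29 lower. The called share was 88.9% against 65.9% over all tested genes, where 34.6% were higher and 31.3% lower. Among the receptors, PLXND1, the vascular semaphorin receptor, was 48.9-fold higher (58.5, 32.8 and 38.3 against 1.49, 0.98 and 0.56 TPM), and the plexins PLXNA1 to PLXNA4, PLXNB1 and PLXNC1 were lower. ROBO4 had no neural count, while ROBO1, ROBO2 and ROBO3 were lower by 1.77-fold, 6.03-fold and 94.1-fold. UNC5B, the netrin receptor of vessels, was 3.78-fold higher, and DCC, the netrin receptor of axons, 174-fold lower (0.18, 0.1 and 0.18 against 25.1, 39.8 and 32.3 TPM). EPHA3 and EPHA5 were 51.9-fold and 213-fold lower, and EPHA2 18.3-fold higher. SLIT2, a ligand of ROBO receptors, was not called (36.5 ± 5.35 and 46.4 ± 7.13 TPM).

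Regulators of splicing in neurons differed by member. PTBP1, which represses neuronal exons, stood at 473, 346 and 445 TPM in the endothelial libraries against 112, 151 and 161 (3.85-fold higher), and PTBP2, its neural counterpart, at 72.8, 59.5 and 50.5 against 514, 423 and 511 TPM (6.27-fold lower). NOVA1, NOVA2, SRRM4, CELF3, CELF4 and CELF5 were lower, by 26.3-fold for NOVA1 and 187-fold for SRRM4. ESRP1, the splicing factor of epithelia, was at 39.9, 32.5 and 34.2 TPM in the endothelial libraries and had 3 neural counts. REST, which silences neuronal genes in other cells, was not called, at 21.1 ± 0.545 and 24.1 ± 4.96 TPM. Of 19 tested, 3 were higher, 15 lower and 1 not called.

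The timing genes around LIN28 stood far apart. LIN28A, which blocks maturation of let-7 microRNAs, was at 512, 687 and 589.8 TPM in the endothelial libraries, 5.49, 6.87 and 11.4 TPM in the neural ones and 1068 ± 60.1 TPM on day 0 (6.77 ± 0.26, adjusted p = 8.85e-12). LIN28B was 12.7-fold, HMGA1 5.74-fold, HMGA2 3.55-fold and TRIM71 8.54-fold higher in the endothelial libraries. Of 11 tested genes of this list, 10 were higher and IGF2BP2 was not called (lower on the log2(TPM + 1) scale, adjusted p = 0.00546). These differences go with the day of culture, which is 6 in one group and 9 or 24 by label in the other, and the 2 cannot be told apart.

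Cell cycle genes were higher in the endothelial libraries in 21 of 26 cases, with a median of 1.30. CCNB1, a mitotic cyclin, was 4.1-fold higher (208 ± 13.4 against 64.1 ± 11.2 TPM), CCNE1 5.33-fold and MCM3 3.1-fold. CDKN1B, an inhibitor of the cycle that is high in neurons, was the 1 gene lower (87.4, 76.3 and 71 against 246, 218 and 259 TPM). MKI67 was not called (50.9 ± 14 and 69.5 ± 13.5 TPM).

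Lists of other cell types placed the epithelial and mesenchymal signal of the endothelial libraries in more detail. All 16 tested epithelial genes were higher, with a median of 8.32. KRT8, a keratin of simple epithelia, stood at 2091, 2692 and 2358 TPM against 12.3, 9.12 and 4.64, and on day 0 at 2923 ± 38.9 TPM. KRT19 was 315-fold higher, and GRHL2, a factor of epithelial identity, 59.8-fold (12.9 ± 1.76 against 0.283 ± 0.0862 TPM). Of 6 tested endoderm genes, 5 were higher (APOA1, APOE, FOXA1, GATA6 and SOX17) and ALB, the gene of albumin, was lower (0.55, 0.3 and 0.32 against 6.19, 7.74 and 6.4 TPM). APOA1 stood at 418, 353 and 362 TPM and APOE at 439.8, 523 and 423 TPM in the endothelial libraries. AFP had no count, FOXA2 stood at 0.427 ± 0.368 TPM and TTR at 0.463 ± 0.516 TPM. On day 0 APOA1 and APOE were at 1138 ± 140.4 and 1093 ± 78.5 TPM.

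Of 20 tested fibroblast and mesenchyme genes, 17 were higher and none lower, with ELN, LOX and THY1 not called; ELN was lower on the log2(TPM + 1) scale of limma (adjusted p = 0.0208). COL3A1, a fibrillar collagen, stood at 429.7, 423 and 760.0 TPM against 2.06, 2.24 and 3.25, highest in endothelial replicate 3. COL1A1 was at 83.2, 39.1 and 61.5 TPM, DCN, the gene of decorin, at 55.6, 63 and 47.8 and PDGFRA, a receptor of mesenchymal cells, at 35.9, 35 and 45.8. HAND1 and HAND2 are factors of lateral and cardiac mesoderm. HAND1 was at 25.5, 18.8 and 20.5 TPM with no neural count, and HAND2 at 42.1, 48.2 and 54.3 TPM with 3 neural counts. Among cardiac genes TNNT2 stood at 4.03 ± 0.932 TPM and NPPA had no count, while MYH7 was at 20.7, 13 and 16.2 TPM. SOX10, a neural crest factor, was at 5.5, 1.92 and 2.19 TPM in the endothelial libraries with 2 neural counts, and ERBB3, expressed in crest and epithelia, at 64.7 ± 2.39 against 0.417 ± 0.401 TPM. With the groups as labelled, whose neural side holds a library with high TNNT2, the log2 differences of COL3A1, COL1A1 and HAND2 were -0.18, -1.18 and -0.93. The share of these cell types in the cultures was not measured.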

How the data were processed

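RNA of the cultures was isolated with a column kit and made into LM-seq libraries, per the labels' protocols. The authors deposited 1 table of estimated counts and 1 of TPM for genes of Sscrofa11.1. The submitters' processing notes name RSEM 1.2.3, Bowtie 1.2.3 and bcl2fastq, with no order of use. The strand setting of the counting is not given in the sources used here. Antisense or overlapping genes and near-identical copies are therefore uncertain.

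The estimated counts were rounded to whole numbers. The absolute changes, summed over genes and the 6 libraries together, came to 0.0184% of their estimated counts. Genes were kept by filterByExpr at a minimum count of 10, scaled by TMM and tested with edgeR 4.0.16 (quasi-likelihood, R 4.3.3) on the 6 libraries, with Benjamini-Hochberg adjustment over 13007 genes and a threshold of 0.05. The fit was tested on simulated counts. Log2 values come from counts, and levels between genes are compared in TPM. Where a group had no count, the fold is a bound against 3 counts over that group, and 1 to 3 counts are given as a ratio with an exact 95% interval, both for counting error only. Alternatives were DESeq2 1.42.0, RLE scaling, no filter, a minimum fold of 2, limma 3.58.1 on log2(TPM + 1) or log2(TPM + 0.1), the replicate number as a block, a fit of 21 clone 8 libraries, the groups as labelled, and each library left out.

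Named genes were members of 41 lists and, beyond them, the 10 genes with a symbol that differed most in each direction (no overlap of libraries, at least 10 TPM in the higher group, ranked by the bound where a group had no count). The groups and lists were chosen with earlier results of these data known. List members not analysed here were PF4, PAX8, HOXB4, HOXB9, HOXD4, TUBB3, TUBB2A, ELAVL4, COL6A1, MYH6, KRT7, IDI1 and CYP51A1. Results of a few listed genes are not reported here.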

Additional observations from a re-analysis of the deposited data

How the results depend on the processing

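Counts of called genes stayed within 1.5 times the 8570 given above under DESeq2, RLE scaling, no filter on low counts, both log2(TPM) fits, the replicate number as a block and the fit of 21 libraries, and none of the 8570 genes was called in the opposite direction there. Leaving out each library in turn gave 7671 to 8635 genes, 3985 to 4534 higher and 3686 to 4211 lower. A minimum fold of 2 left 4039 genes, 1878 higher and 2161 lower. The groups as labelled gave 1231 genes, 666 higher and 565 lower. In that fit 1202 of the 8570 genes were called the same way, none was called the opposite way, and 532 had the opposite sign. Among the named genes the sign turned for B2M (-0.53), COL1A1 (-1.18), COL3A1 (-0.18), HAND2 (-0.93), PHGDH (-0.12), GATA6 (-1.28), ENO1 (-0.20) and PGAM1 (-0.072), and the cause was not tested.

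Endothelial and neural libraries with the same replicate number had correlations of their deviations of 0.056, -0.007 and -0.049. Pairs with unlike numbers had correlations from -0.072 to 0.098. Endothelial replicate 2 recurs among the same-number pairs, and so few pairs cannot tell whether a shared number means a shared batch. With the replicate number as a block 7882 genes were called, 4123 higher and 3759 lower. No neural library has the number 1, so the block takes up endothelial replicate 1, and the difference rests on the other libraries. ZIC2 was at -0.89 in this fit and -0.85 without endothelial replicate 1, and MYL2 at -6.05 and -5.68. The block ended the calls of HES1, MYB, ITGA2B and ENO1 (adjusted p = 0.139, 0.197, 0.109 and 0.0752 in edgeR) and gave calls to ZIC2 and MYL2. Depth limits the low genes most, since the library labelled neural progenitor replicate 3 holds 1845333 estimated counts.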

Other observations

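Of 21 tested glycolysis genes, 9 were lower in the endothelial libraries and 5 higher (ENO1, LDHB, PFKL, PGAM1 and SLC16A1), a called share of 66.7% against 65.9% over all genes. On the log2(TPM + 1) scale the split was 12 lower and 3 higher, with ENO1 and PFKL no longer called. ENO1 also lost its call without endothelial replicate 2, the library labelled cardiomyocyte replicate 2 or that labelled neural progenitor replicate 3 (adjusted p = 0.103, 0.216 and 0.222). A minimum fold of 2 left 4 lower and 1 higher (SLC16A1). Without the library labelled neural progenitor replicate 2 it was 5 lower and 6 higher. ENO2, the enolase typical of neurons, stood at 147, 262 and 203 TPM in the neural libraries against 13.7, 10.2 and 8.88 TPM in the endothelial ones (-3.88 ± 0.20, adjusted p = 1.6e-10 in edgeR), and ALDOC, the aldolase of brain, was 4.86-fold lower in the endothelial libraries. HK2, a hexokinase, was 3.62-fold lower there. On the other side, SLC16A1, a lactate carrier, stood at 337, 341 and 345 against 53.5, 56.4 and 45.8 TPM, 8.01-fold higher. The glucose carriers SLC2A1 and SLC2A3 were not called. Of 14 tested genes of cholesterol synthesis, 4 were lower, among them LSS, SC5D and SQLE, and none higher. The called share of this list was 28.6% against 65.9% over all genes, where 31.3% were lower. The number lower in the list was 9 on the log2(TPM + 1) scale, 7 without the library labelled cardiomyocyte replicate 2 and 0 at a minimum fold of 2 in edgeR. The call of LSS was lost without endothelial replicate 2 (adjusted p = 0.0818) or without the library labelled neural progenitor replicate 2 (adjusted p = 0.0829). SQLE stood at 126 ± 10.6 against 297 ± 63.4 TPM. Of 12 tested interferon and antigen presentation genes, 6 were higher, none lower and 6 not called. That is a called share of 50% against 65.9% over all genes, where 34.6% were higher. B2M, the light chain of class I molecules, stood at 360.4, 228 and 285 TPM against 71.6, 47.6 and 23.6, and MX1 at 39.7, 20.3 and 42.6 against 10.3, 11.2 and 10.9 TPM. BST2 had no neural count and was at least 36.4-fold higher. Of 10 tested immediate early genes, 6 were higher and 3 lower (JUN, DDIT3 and DUSP1), the last of them not without endothelial replicate 2 (adjusted p = 0.0592) or 3 (adjusted p = 0.0899). JUN stood at 21.5, 17.9 and 16.9 against 65.7, 114 and 98.3 TPM, and IER3 had no neural count (at least 91.1-fold higher).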
